A study of Mus musculus with 2 samples.

Results

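The serpins described here are 8 genes of the mouse serpin family, most of them known as protease inhibitors. They were matched by symbol to array probe sets that the platform annotation assigns to a single gene. Of the 8, 7 had such a probe set, with 13 probe sets between them, among 18193 genes so represented. No probe set carries Serpine2 as its only symbol in the annotation used, so Serpine2, protease nexin 1, was not analysed here. The RNA came from follicle epithelium of CD-1 mice at postnatal day 4. The mice of both groups carried K14-RFP, a red reporter driven by the keratin 14 promoter of basal keratinocytes, and Sox9-EGFP, a green reporter for the stem cell transcription factor Sox9. Early bulge cells were sorted as bright in red and green, and they come from the part of the follicle that houses its stem cells. Cells of the non-bulge outer root sheath (ORS), the outer epithelial layer of the follicle, were sorted as bright in red with no green. Gating had removed dead and large, differentiated cells from both. Each population was measured on 1 Affymetrix array, so no difference between them has a replicate check, no p-value can be given, and every comparison is between these 2 RNA samples. The labels do not say how many animals each sample held.

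Serpins share a fold in which an exposed reactive loop acts as bait for a protease. In the inhibitory members, cleavage of the loop springs the protein into a new shape that traps the protease. Some members have lost this activity and work as chaperones or as secreted signals. In skin, secreted serpins are made by dermal cells among others, whereas intracellular serpins of clade B are typical of keratinocytes. The members measured here cover both kinds: the secreted proteins Serpinf1 and Serping1, the endoplasmic reticulum chaperone Serpinh1, and the clade B genes Serpinb2, Serpinb5, Serpinb6a and Serpinb8.

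The sequence before the start site is shown for 3 members whose signals differed between the arrays and for which RefSeq gives a promoter (GRCm38.p6): Serpinf1 and Serpinh1, which had the higher signal in ORS cells, and Serpinb8, the clade B member with the largest difference. Each run holds 250 bases before the start site and the first 50 transcribed bases, 5′ to 3′. The windows lie at chr11:75422574-75422873 (minus strand) for Serpinf1, chr7:99353190-99353489 (minus strand) for Serpinh1 and chr1:107589756-107590055 (plus strand) for Serpinb8. Capitals mark matches on either strand to CCAAT, to the GC box GGGCGG, to the TATA box TATAAA or to the AP-1 element TGACTCA or TGAGTCA.
Serpinf1: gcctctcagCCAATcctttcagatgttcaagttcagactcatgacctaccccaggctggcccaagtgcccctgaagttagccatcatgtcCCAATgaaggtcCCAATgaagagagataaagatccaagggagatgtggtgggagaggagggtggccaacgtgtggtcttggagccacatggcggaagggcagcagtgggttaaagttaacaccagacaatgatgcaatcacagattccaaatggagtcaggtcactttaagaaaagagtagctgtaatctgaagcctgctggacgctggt
Serpinh1: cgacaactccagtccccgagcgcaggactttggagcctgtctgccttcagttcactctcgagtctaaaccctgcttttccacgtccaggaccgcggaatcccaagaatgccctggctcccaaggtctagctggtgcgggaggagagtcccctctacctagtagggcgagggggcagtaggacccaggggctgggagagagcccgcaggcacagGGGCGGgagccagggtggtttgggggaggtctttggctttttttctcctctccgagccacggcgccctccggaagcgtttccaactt
Serpinb8: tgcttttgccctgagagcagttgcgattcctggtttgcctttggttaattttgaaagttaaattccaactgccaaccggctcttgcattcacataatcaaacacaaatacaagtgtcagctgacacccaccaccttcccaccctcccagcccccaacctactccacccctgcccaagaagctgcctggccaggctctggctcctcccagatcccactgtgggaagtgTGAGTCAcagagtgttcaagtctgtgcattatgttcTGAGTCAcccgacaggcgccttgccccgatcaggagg

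The marked matches differed between the 3 windows, and none of them overlapped another. Serpinf1 had 3 CCAAT matches, at 241, 160 and 148 bases before the start, and no GC box. A CCAAT match is common, being present in 37.4% of the 32851 mouse promoter windows of the same length. Serpinh1 had 1 GC box, 37 bases before the start, a motif found in 35.7% of windows. Serpinb8 had 2 AP-1 matches, 1 of them 23 bases before the start and the other from transcribed base 14. At least 1 such match was present in 5.20% of all windows and 2 or more in 0.222%. TATAAA was absent from all 3 windows and present in 13.6% of windows overall. Among the other members with a window, Serpinb2 had TATAAA 29 bases before its first start site, and Serpinb5 and Serpinb6a had no AP-1 match. The G and C content of the windows shown was 50.7% for Serpinf1, 62.3% for Serpinh1 and 53.3% for Serpinb8, against a median of 52.7% over all windows. These are matches of letters, and binding was not measured.

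All signals are MAS5 values on a linear scale, in arbitrary units. Signals under 57.8, the 40th percentile of all signals, were treated as not ordered, and a gene counted as measured when 1 or both arrays came up to that floor. All 7 serpins were measured, among 13252 genes. Where a gene has several probe sets, the one with the highest mean log2 signal represents it, and ratios are early bulge over ORS. Both arrays had the same trimmed mean of 500, and their median signals were 102.2 for early bulge and 88.0 for ORS. Sox9, the gene behind the green gate, had signals of 4061 in early bulge cells and 676 in ORS cells (6.01-fold), although the lowest log2 ratio among its 3 probe sets was 0.30. All 8 basal keratinocyte markers had the higher signal in early bulge cells, 4 of them by 2-fold or more, Krt14 among them (14706 in early bulge, 6609 in ORS). On the probe sets that represent them, all 13 matched dermal fibroblast markers passed 2-fold towards ORS. Their summed signal was 61687 there, against 5169 in early bulge cells. Other probe sets of Dcn, Pdgfra and Mfap5 gave log2 ratios of only -0.21 for Dcn, -0.08 for Pdgfra and -0.68 for Mfap5. Populations sorted from one tissue can differ in the mix of cells and in the RNA of each cell, and on bulk arrays fewer cells of a type and less RNA per cell cannot be told apart.

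All 3 secreted or chaperone members had the higher signal in ORS cells, with a median log2 ratio of -1.87. Of the 4 clade B members, 3 had the higher signal in early bulge cells and 1 in ORS cells (median 0.46). The median over all measured genes was 0.04, so either direction was common, and counts this small do not set the 2 kinds apart. The dermal fibroblast markers, with a median of -3.60, had the direction of the secreted and chaperone members. Basal keratinocyte markers, with a median of 0.94, had that of most clade B members. Other marker lists shared these directions in their medians, though not in every gene. The medians of hair matrix genes (-1.87) and of pericyte and smooth muscle markers (-1.02) lay towards ORS. Those of upper follicle and sebaceous genes (3.53), suprabasal genes (1.36) and bulge genes (1.11) lay towards early bulge. Of 11 bulge genes, 8 had the higher signal in early bulge cells and 3 in ORS cells. Among the 3 was Cd34, with 61.8 in early bulge cells and 602.9 in ORS cells (9.75-fold). Of 8 pericyte and smooth muscle markers, 6 were higher in ORS cells and 2 in early bulge cells. Of the 7 serpins in all, 1 passed 2-fold towards early bulge, where 7.30% of measured genes did, and 2 towards ORS, where 4.78% did. The remaining 4 were less than 2-fold apart. At 4-fold, 1 serpin was higher in ORS cells, against 1.32% of measured genes, and none in early bulge cells, against 1.87%. A single gene is the smallest count above 0 that 7 genes allow. The median log2 ratio was -0.63 over the 7 serpins and 0.04 over all measured genes.

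**Figure D1:**
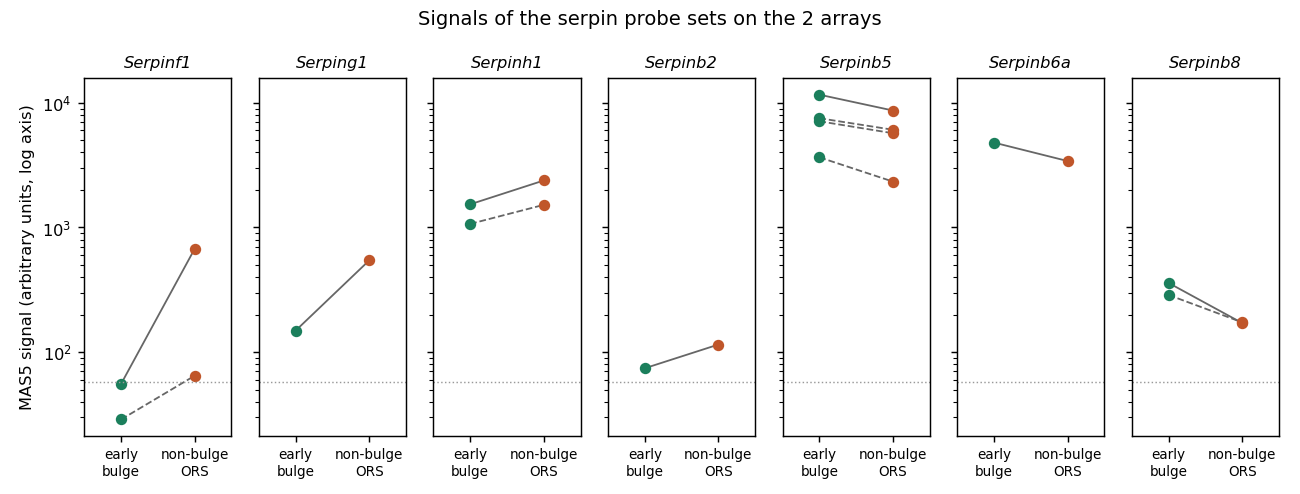
MAS5 signal (log axis) of each serpin probe set in early bulge cells (green, left) and non-bulge ORS cells (orange, right), 1 array each. Solid lines join the probe set that represents the gene and dashed lines its others, and the dotted line is the floor of 57.8. Serpinf1, Serping1, Serpinh1 and Serpinb2 climb towards ORS and Serpinb5, Serpinb6a and Serpinb8 decline, on every probe set.

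Serpinf1, which encodes pigment epithelium-derived factor (PEDF), a secreted serpin without inhibitory activity that restrains blood vessel growth, had the largest difference of the 7. Its signal was 55.6 in early bulge cells, just under the floor, and 673.9 in ORS cells, so the ORS signal was at least 11.7-fold higher (log2 ratio -3.54 at the floor). The second probe set of Serpinf1 was dim on both arrays, with signals of 28.9 in early bulge cells and 64.7 in ORS cells. Both probe sets thus had the higher signal in ORS cells, but the second gives a bound of only 1.12-fold. The bounds of the 2 probe sets lay 3.38 apart on the log2 scale, and 0.0972% of 6172 pairs of probe sets of one gene lay as far apart or farther. The SD of such differences was 0.55, and it serves here as a measure of technical spread between probe sets, not between animals.

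Partners of PEDF were listed as 8 genes: its receptors and binding partners Pnpla2, Rpsa, Lrp6, Plxdc1 and Plxdc2, and the vessel regulators Kdr, Vegfa and Thbs1. Of the 8, 7 had the higher signal in early bulge cells and 1 passed 2-fold there, with a median log2 ratio of 0.37 against 0.04 for all measured genes. Plxdc1, a transmembrane receptor for PEDF, had signals of 980.5 in early bulge cells and 168.3 in ORS cells (5.83-fold). Pnpla2, the lipase that binds PEDF, had 282.4 in early bulge cells and 257.9 in ORS cells, a log2 ratio of 0.13. Kdr, the endothelial receptor for Vegfa, had 76.6 in ORS and lay below the floor in early bulge.

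Serping1, the C1 inhibitor that blocks the first proteases of the complement cascade and of the contact system, followed Serpinf1. Its only probe set gave 148.8 in early bulge cells and 544.8 in ORS cells (3.66-fold, log2 ratio -1.87). Both signals were above the floor. It ranked 136 from the ORS end of the 11534 genes that both arrays measured above the floor. Of the proteases that C1 inhibitor acts on, none that was measured passed 2-fold. C1s1 had 180.6 in early bulge cells and 127.0 in ORS cells, and C1ra was below the floor on both (8.08 in early bulge, 54.8 in ORS). Masp1, of the lectin pathway, had a log2 ratio of -0.14, and the contact proteases Klkb1 and F12 were below the floor on both arrays. Of 14 matched genes on the complement and contact list 7 were measured, 2 of them past 2-fold towards ORS and none the other way (median -0.14). C1qtnf3, at least 25.4-fold higher in ORS (38.1 in early bulge, 1467 in ORS), encodes a secreted protein related to C1q that is no component of the cascade. Without it 1 of 6 passed 2-fold, and the median turned to 0.18. That gene was C2 (70.6 in early bulge, 190.4 in ORS), of which another probe set gave a log2 ratio of -0.00.

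**Figure D2:**
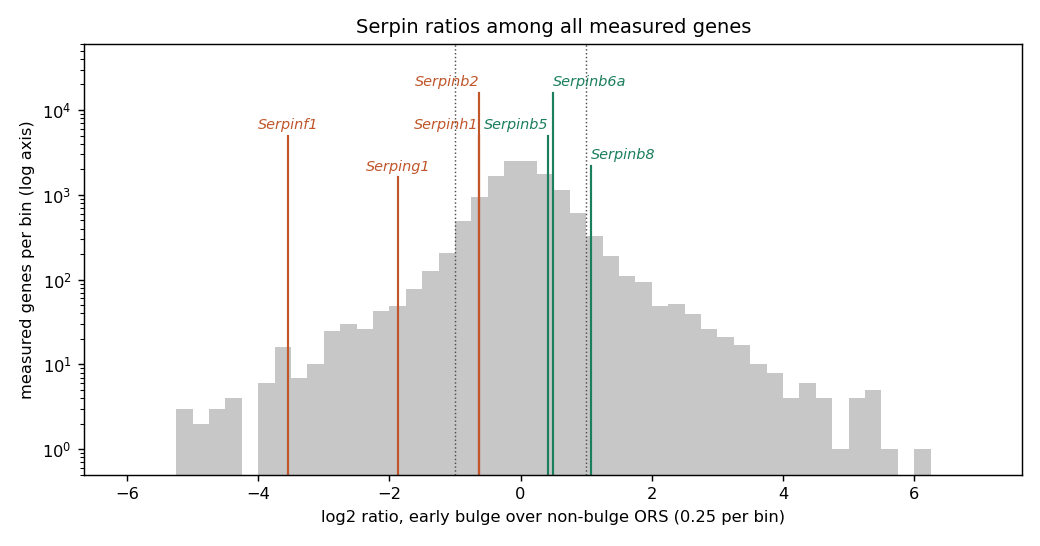
Number of measured genes (log axis) by log2 ratio, early bulge over non-bulge ORS, in bins of 0.25, over 13252 genes. Orange and green lines mark the 7 serpins by the array with their higher signal, and dotted lines mark 2-fold. Serpinf1 at -3.54 and Serping1 at -1.87 lie in the ORS tail, and Serpinb8 at 1.07 lies just past 2-fold towards early bulge.

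Serpinh1, also known as HSP47, is a collagen-specific chaperone of the endoplasmic reticulum. Its signals were 1535 in early bulge cells and 2383 in ORS cells (1.55-fold, log2 ratio -0.63). Its other probe set gave 1069 in early bulge cells and 1520 in ORS cells (log2 ratio -0.51). The 2 probe sets were 0.13 apart, well within the spread between probe sets, and neither reached 2-fold. Both carry a suffix that marks probe sets not unique to 1 transcript.

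The clients of HSP47 are collagens in the course of folding. All 12 measured fibrillar and related collagen genes had the higher signal in ORS cells, 9 of them by 2-fold or more (median -2.39). Col1a1, a chain of type I collagen, had 380.1 in early bulge cells and 3865 in ORS cells (10.2-fold), and Col3a1, the chain of type III collagen, 1378 in early bulge cells and 16726 in ORS cells (12.1-fold). Col6a2 was 15.6-fold and Col1a2 13.4-fold higher in ORS cells. The 10 basement membrane and related collagens divided. Of these, 3 passed 2-fold towards early bulge, 3 towards ORS, and 4 were closer (median 0.15). Col4a4 (10.3-fold), Col7a1, the anchoring fibril collagen (6.35-fold), and the hemidesmosome collagen Col17a1 (5.20-fold) were higher in early bulge cells, and Col15a1 (3.81-fold), Col4a1 (2.98-fold) and Col4a2 (2.75-fold) in ORS cells. Among 22 measured genes of collagen folding and processing, 2 passed 2-fold towards early bulge, 4 towards ORS, and 16 were closer (median -0.10). The procollagen cutting enhancer Pcolce was 14.3-fold and the collagen-binding protein Sparc 7.12-fold higher in ORS cells, with 1 probe set of Sparc at 0.10. The prolyl hydroxylase P3h2 was 4.07-fold higher in early bulge cells (517.8 in early bulge, 127.1 in ORS). P4hb and Ppib, general folding enzymes that also serve collagen, had log2 ratios of -0.11 and 0.04.

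Serpinh1 is also a heat shock gene, and other chaperones were listed beside it. Of 19 measured chaperone and heat shock genes, 12 had the higher signal in early bulge cells and 7 in ORS cells (median 0.21). Their log2 ratios ran from -0.18 for Hspd1 to 1.05 for Bag3, the only one past 2-fold. Serpinh1, at -0.63 and on its other probe set -0.51, lay below all of them. Its difference from these genes was not tested. The endoplasmic reticulum chaperone Hspa5 had signals of 17484 in early bulge cells and 13920 in ORS cells.

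Dermal fibroblasts are a cell type outside the keratin 14 gate. Markers of these cells went the same way as Serpinf1, Serping1, Serpinh1, Serpinb2 and the fibrillar collagens. The log2 ratios of the markers ran from -5.00 for the crosslinking enzyme Lox to -1.38 for Mfap5, with a median of -3.60. Of the 13 markers, 5 also stand in the list of fibrillar and related collagens. On the representing probe sets, the remaining 8 all passed 2-fold towards ORS (median -3.45). Pdgfra and Mfap5 were below the floor in early bulge cells, at 11.3 for Pdgfra and 55.2 for Mfap5, and no marker of the list was below it in ORS cells. Lum, a proteoglycan of dermal matrix, had 118.3 in early bulge cells and 3539 in ORS cells. Of the 8 markers of pericytes and smooth muscle, 4 passed 2-fold towards ORS, and of 8 endothelial markers 6 were below the floor on both arrays. Genes of the hair matrix, an epithelial part of the follicle, also went towards ORS. Of these 10 genes, 9 had the higher signal there, 7 of them by 2-fold or more (median -1.87). The part of these cell types in the serpin values was not tested.

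Serpinb2, plasminogen activator inhibitor 2, an inhibitor of urokinase known from differentiating keratinocytes and macrophages, was close to the floor and the only clade B member with the higher signal in ORS cells. It had 74.3 in early bulge cells and 115.1 in ORS cells (1.55-fold, log2 ratio -0.63), both within 2-fold of the floor. The urokinase gene Plau had 31.3 in early bulge cells, below the floor, and 69.7 in ORS cells, and its receptor Plaur had 113.6 in early bulge and 171.8 in ORS (log2 ratio -0.60). Plat, the tissue-type activator, had 2437 in early bulge cells and 1945 in ORS cells. Of 9 measured genes on the plasminogen activation list, the median was 0.32 and 1 passed 2-fold. That gene was Mst1, at least 3.08-fold higher in early bulge cells, with 44.1, below the floor, in ORS cells. Markers of suprabasal epidermis, where Serpinb2 is known to be made, had the higher signal in early bulge cells in 7 of 9 measured genes, 5 of them by 2-fold or more, whereas among immune markers 4 of 10 were measured and none was 2-fold apart.

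Serpinb5, known as maspin, an epithelial serpin without clear inhibitory activity, lay far above the floor on both arrays. Its main probe set had 11621 in early bulge cells and 8671 in ORS cells (1.34-fold, log2 ratio 0.42). The 3 others gave 7523, 7111 and 3654 in early bulge cells and 6078, 5702 and 2334 in ORS cells. All 4 probe sets had the higher signal in early bulge cells, with log2 ratios from 0.31 to 0.65, and none reached 2-fold. The basal keratinocyte markers, which share its direction, had a median of 0.94 and ran from 0.40 for Trp63 to 2.38 for Col17a1.

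Serpinb6a is the mouse counterpart of human SERPINB6, an intracellular inhibitor of cathepsin G. Its only probe set had 4797 in early bulge cells and 3412 in ORS cells (1.41-fold, log2 ratio 0.49). The cathepsin G gene Ctsg was below the floor on both arrays (4.16 in early bulge, 6.24 in ORS). On the probe sets that represent them, the differences of Serpinb6a and Serpinb5 were smaller than the SD of 0.55 over all pairs of probe sets. They were larger than the SD of 0.37 over the 3374 pairs in which both probe sets lay at 4 times the floor or above, as these do. Other probe sets of Serpinb5, at 0.31 and 0.32, were below 0.37. After median centring so were both genes (0.20 for Serpinb5, 0.27 for Serpinb6a). Both are SDs of a difference between the ratios of paired probe sets. Such a difference spreads more than a single ratio where probe sets err independently, so the comparison is rough. Neither SD measures the spread between samples.

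Serpinb8, whose human counterpart inhibits the proprotein convertase furin in vitro, was the clade B member with the largest ratio. Its main probe set had 359.3 in early bulge cells and 171.3 in ORS cells (2.10-fold, log2 ratio 1.07), and the other 287.7 in early bulge cells and 173.5 in ORS cells (1.66-fold, log2 ratio 0.73). Both probe sets had the higher signal in early bulge cells, but only 1 passed 2-fold. After median centring of the arrays, quantile normalization or loess scaling the ratio of the main probe set was between 0.85 and 0.97, so the 2-fold call depends on the scaling. It ranked 685 from the early bulge end of the same 11534 genes. Furin itself differed little, with 1316 in early bulge cells and 1192 in ORS cells. The related convertase Pcsk6 was 3.78-fold higher in early bulge cells (1258 in early bulge, 333.2 in ORS), while Pcsk5 and Pcsk7 had log2 ratios of -0.32 and 0.09. Of 17 measured pericellular serine proteases and convertases, 4 passed 2-fold towards early bulge and 5 towards ORS (median -0.05). The largest ratios were those of Dpp4 (at least 7.84-fold) and Htra3 (at least 6.44-fold), both higher in ORS cells. Other probe sets gave log2 ratios up to -0.67 for Dpp4 and 0.68 for Htra3.

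The 3 genes closest to Serpinb8 in the plane of both log2 signals were Tigd5, Hoxa2 and Dhx32, at distances of 0.01, 0.04 and 0.06. Those closest to Serping1 were Zfp354c, Mtcl1 and Nudt6, at 0.16, 0.20 and 0.23. With 2 arrays such likeness rests on 2 values a gene.

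Clade B genes lie in 2 clusters, on chromosomes 1 and 13 of the mouse, in the gene order of GRCm38.p6. The cluster on chromosome 1 holds 12 genes, with Serpinb5 at one end, Serpinb8 at the other and Serpinb2 close to Serpinb8. Of its 7 genes with a probe set of their own 5 were measured. Serpinb7 and Serpinb11, the neighbours of Serpinb2 on one side, were below the floor in early bulge (39.6 for Serpinb7, 41.1 for Serpinb11), and had 84.2 for Serpinb7 and 64.5 for Serpinb11 in ORS. In the cluster on chromosome 13, 5 genes were measured, Serpinb6a included, and none passed 2-fold. Serpinb6a and Serpinb6e were above the floor on both arrays, with the higher signal in early bulge cells. Serpinb1a, Serpinb6b and Serpinb6c came up to the floor in early bulge cells alone, so being measured fixed their direction. Serpinb6e had 649.6 in early bulge cells and 333.1 in ORS cells (log2 ratio 0.96), and Serpinb6b had 101.4 in early bulge cells and 54.7, below the floor, in ORS cells. These Serpinb6 genes are close relatives that probes may not tell apart, so their values are uncertain as measures of single genes.

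**Figure D3:**
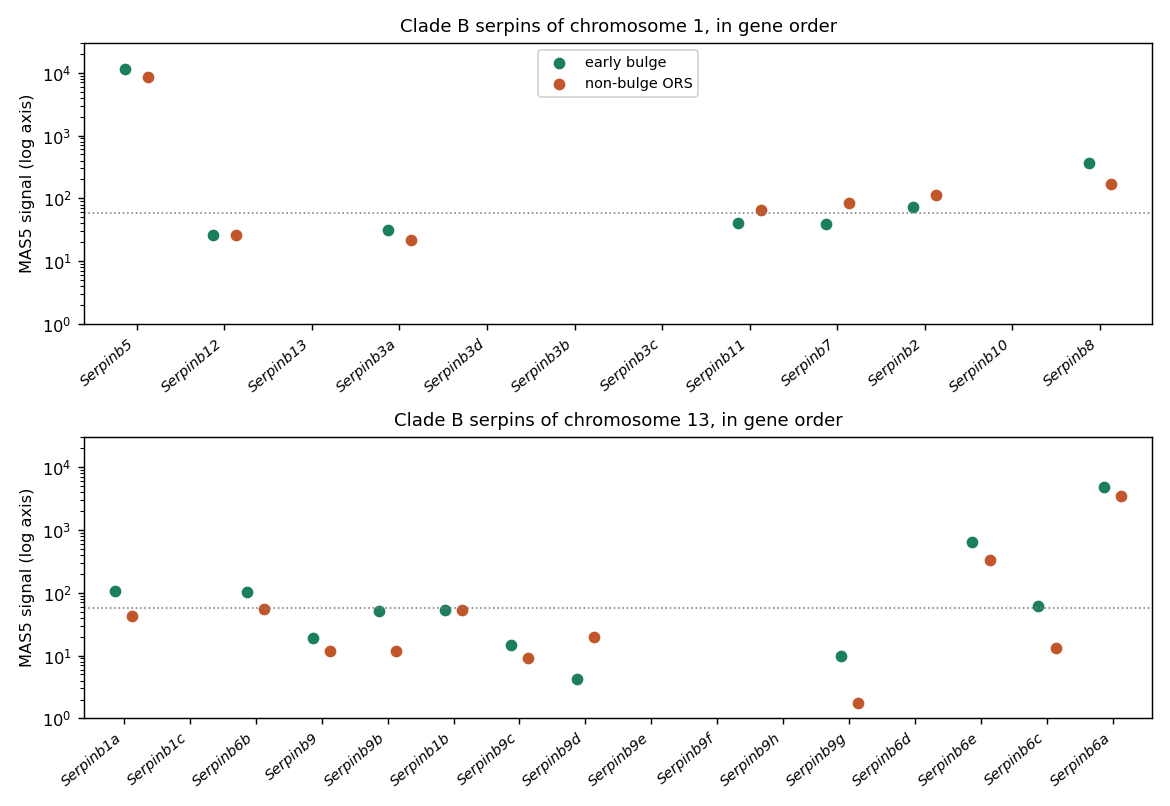
MAS5 signal (log axis) of clade B serpin genes in gene order along mouse chromosomes 1 (top) and 13 (bottom), in early bulge cells (green) and non-bulge ORS cells (orange), with the dotted line at the floor of 57.8. Genes without points had no probe set of their own. Serpinb5 and Serpinb8 at the ends of the upper cluster have the higher signal in early bulge cells and the 3 measured genes between them in ORS cells. Of these, Serpinb7 and Serpinb11 are above the floor in ORS cells alone, which fixes their direction.

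Of the 33 other serpin genes with a probe set of their own, 15 were measured and 18 were below the floor on both arrays. Of the 15, 2 passed 2-fold towards early bulge, 1 towards ORS and 12 were closer, with a median of 0.31. Most of the 15 came up to the floor on 1 array alone, so being measured fixed their direction and their ratios are bounds. Of all 33, 22 were below the floor in early bulge cells and 25 in ORS cells. Serpina9 had 252.5 in early bulge cells and 85.4 in ORS cells (2.96-fold). Serpinf2, the plasmin inhibitor alpha-2-antiplasmin, had 152.8 in early bulge cells and 11.3 in ORS cells, at least 2.64-fold. Serpini1, or neuroserpin, an inhibitor of the tissue-type plasminogen activator, had 63.8 in early bulge cells and 159.2 in ORS cells (2.50-fold). Serpinf2 had the opposite direction to Serpinf1, its relative of clade F. Serpinf2 came up to the floor in early bulge cells alone and Serpinf1 in ORS cells alone, so being measured fixed both directions. The difference between the measured members and the other serpins was not tested.

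**Figure D4:**
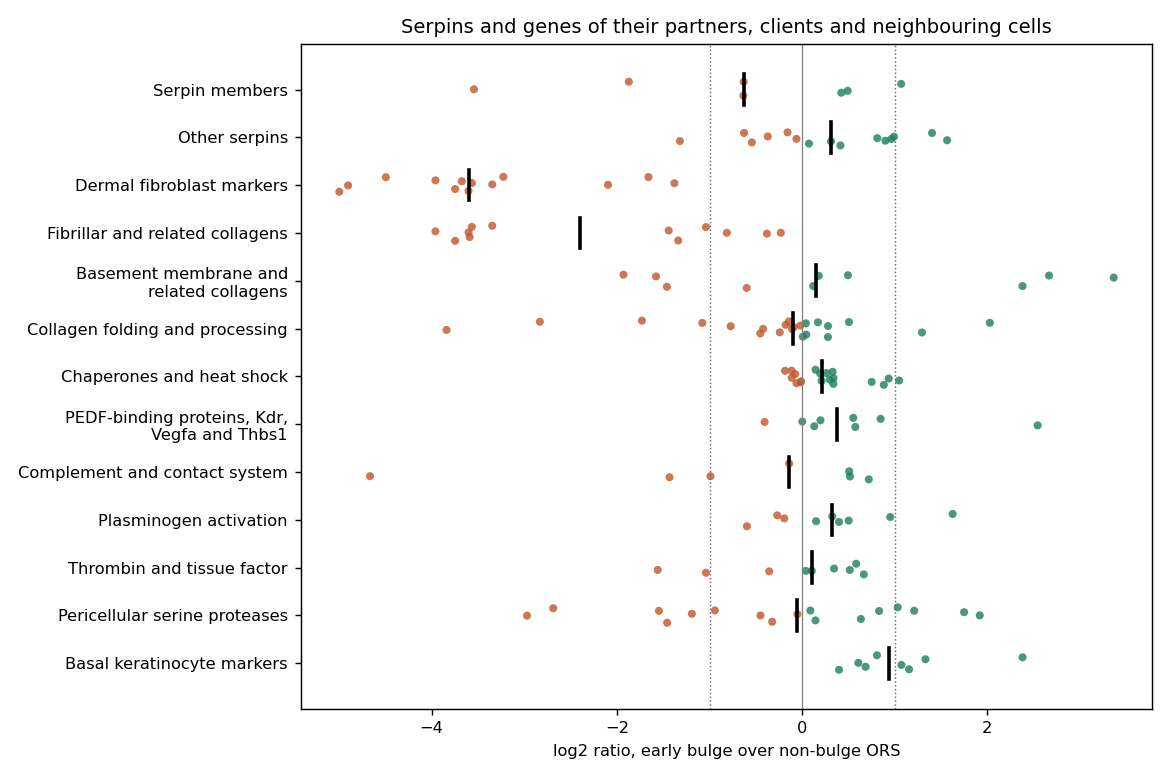
Log2 ratio, early bulge over non-bulge ORS, of the 7 serpins (top row) and of measured genes in lists of other serpins, neighbouring cell types, collagens, chaperones and proteases, with 1 point a gene (vertical jitter only), a black bar at the median and dotted lines at 2-fold. Genes with 1 array below the floor are drawn at their bound. The fibroblast and fibrillar collagen rows lie left of 0, as do Serpinf1, Serping1, Serpinh1 and Serpinb2.

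Thrombin is a target of several serpins. Of 9 measured genes of the thrombin and tissue factor list, 2 passed 2-fold towards ORS and none towards early bulge (median 0.10). F3, tissue factor, had 679.5 in early bulge cells and 2003 in ORS cells (2.95-fold). Tfpi, an inhibitor of tissue factor outside the serpin family, had 114.3 in early bulge cells and 234.7 in ORS cells (2.05-fold). The thrombin receptor F2r had 10120 in early bulge cells and 7086 in ORS cells, a log2 ratio of 0.51.

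Each serpin kept its direction under every alternative that gave it a value. Serping1 ran from -2.09 to -1.54 over 9 alternatives and Serpinf1 from -3.66 to -1.85, both past 2-fold in all of them. Serpinf1 was weakest when its probe sets were averaged. Serpinh1 ran from -0.85 to -0.55 and Serpinb2 from -0.85 to -0.39, without reaching 2-fold, and neither did Serpinb5 (0.20 to 0.65) or Serpinb6a (0.27 to 0.55). Over all measured genes the balance of directions depended on scaling. As deposited, 60.4% of the genes past 2-fold lay towards early bulge (968, with 634 towards ORS). After median centring 40.9% did (706, with 1019 towards ORS), and the median of all measured genes was -0.17.

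**Figure D5:**
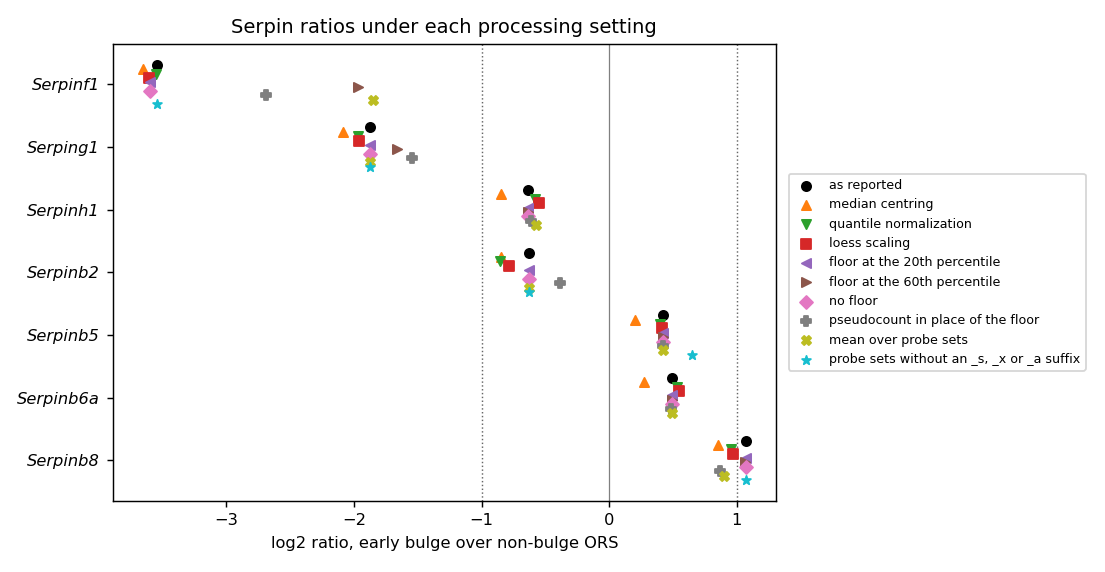
Log2 ratio, early bulge over non-bulge ORS, of each serpin as reported (black circle) and under each alternative scaling, floor or choice of probe set (coloured symbols), with dotted lines at 2-fold. No symbol crosses 0, and Serpinb8 lies on either side of the 2-fold line.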

How the data were processed

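RNA of 2 sorted cell populations was measured on 1 Affymetrix array each. Per the submitters' processing notes, the authors computed the deposited signal intensity of each probe set with MAS5 (Affymetrix Expression Console, version not stated). The values are on a linear scale, and both arrays have a 2% trimmed mean of 500. Because MAS5 takes mismatch probes off the signal, dim values carry much noise. No detection calls or scanner files were used. For the genome build, none is given in the sources used here.

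Symbols came from the platform annotation, and all 7 matched serpins had their Entrez ID and symbol in a RefSeq table (GRCm38.p6). Controls and probe sets with no symbol or more than 1 were left out. Of several probe sets the brightest by mean log2 signal stood for its gene. Signals were floored at the 40th percentile and ratios with 1 array at the floor are bounds. Differences were counted by their size (2-fold, 4-fold) without a test, and the number of arrays limits the precision. The text names every serpin of the set, partners of the serpins, and up to 4 genes a list among those at least 2-fold apart. These are not in every list the genes with the largest ratios. Genes named outside this rule were chosen after their values were seen: Sox9, Cd34, Reck, Spink2, Kdr, Vegfa, Thbs1, Pdgfra, F2r, Trp63, Hspd1, Hspa5, P4hb, Ppib, Mfap5, Pcsk5, Pcsk7, Serpinb1a, Serpinb6b, Serpinb6c, Serpinb6e, Serpinb7 and Serpinb11. The serpins and the 25 gene lists were chosen with earlier results of these data known. The arrays were also centred on their medians, quantile normalized or scaled by loess (span 0.4). Other alternatives were a floor at percentile 20 or 60, no floor, a pseudocount equal to the floor, the mean over probe sets, and the unsuffixed probe sets alone, without those marked _s, _x or _a. The fibroblast list without shared collagens and the complement list without C1qtnf3 were added after seeing the data. The steps were tested on simulated arrays with planted changes of 4-fold or more in brighter genes, larger than the differences of most serpins. That test does not bear on small differences or dim signals. Python 3.11.15, pandas 2.3.3, scipy 1.17.1 and statsmodels 0.14.6 were used.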

Additional observations from a re-analysis of the deposited data

How the results depend on the processing

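Of the 7 serpins, 6 moved by less than 0.55 on the log2 scale, the SD between probe sets of a gene, under all alternatives that gave them a value, and no direction changed. Serpinf1 moved farther under 3 of 9: its ratio was -1.97 with the floor at percentile 60, a bound set by the higher floor itself, -2.69 with a pseudocount, and -1.85 as the mean over probe sets, a bound in which the dim probe set weighs equally. The number of serpins past 2-fold towards early bulge was 0 in place of 1 with median centring, quantile normalization, loess scaling, the pseudocount and the mean over probe sets, because Serpinb8 lies close to 2-fold. The number towards ORS was 2 under all 9. Serpinh1 and Serpinb6a have no value without suffixed probe sets, and Serpinb2 none with the floor at percentile 60. Over all measured genes, 1870 passed 2-fold towards early bulge and 984 towards ORS with the floor at percentile 20, 2731 towards early bulge and 1601 towards ORS with no floor, 616 towards early bulge with the floor at percentile 60, and 1019 towards ORS after median centring. Of 224 list medians under alternatives, 12 moved by more than 0.55. The median of the complement and contact list was 0.18 without C1qtnf3, an alternative chosen after seeing the data, in place of -0.14. No replicate could be left out for lack of replicates. No paired analysis was possible because each population has 1 array. Signals near the floor, as for Serpinb2 and both Serpinf1 signals in early bulge cells, are the least precise.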

Other observations

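Kallikreins and inhibitors outside the serpin family held ratios well past 2-fold. Of 8 measured kallikreins, the secreted serine proteases of the shedding epidermis, 6 passed 2-fold towards early bulge and none towards ORS (median 1.60). Klk7 had 1411 in early bulge cells and 63.3 in ORS cells (22.3-fold), and Klk5 650.8 in early bulge cells and 76.9 in ORS cells (8.47-fold). Of 20 measured inhibitors from other families, 4 passed 2-fold towards early bulge and 2 towards ORS (median 0.17). The cystatin Cst6 (46.1-fold), Wfdc18 (11.0-fold), Timp4 (at least 5.61-fold, another probe set 0.39 on the log2 scale) and Cd109 (5.05-fold) were higher in early bulge cells. Reck, a membrane inhibitor of metalloproteinases, was 4.26-fold and Spink2 at least 2.54-fold higher in ORS cells. Among 10 measured granule and lysosomal proteases, the leukocyte elastase gene Elane was at least 3.06-fold higher in early bulge cells and the collagen-cutting cathepsin Ctsk at least 4.66-fold higher in ORS cells (median 0.24).

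The remaining marker lists give the setting of these values. Medians were 3.53 for 10 upper follicle and sebaceous genes, 1.36 for 9 suprabasal genes, 1.11 for 11 bulge genes, 0.44 for 4 immune and 0.19 for 8 melanocyte markers. They were -1.87 for 10 hair matrix genes, -0.44 for 10 dermal papilla markers, -1.02 for 8 pericyte and smooth muscle markers and -1.22 for 2 endothelial markers. The single measured adipocyte marker had -0.90. Another 3 probe sets carry the symbols of several serpins each, and all 3 were below the floor on both arrays.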
